A study of Mus musculus with 14 samples.

Results

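The genes that take the ovary from cholesterol to progesterone, androgen and estradiol were followed in mouse ovaries after colitis. They are Star, Cyp11a1, Hsd3b1, Cyp17a1, Cyp19a1, Hsd17b1, Akr1c18, Srd5a1, Fdx1 and Fdxr. All 10 were found by gene name among 56748 genes of the expression table. The animals were female C57BL/6J mice labelled wild type. Dextran sulfate sodium (DSS), a polymer that injures the lining of the colon, had been given to some of them, and the labels give neither dose, age nor stage of the oestrous cycle. The 14 libraries fell into DSS day 89 (n = 4), control day 89 (n = 3), DSS day 7 (n = 4) and control day 7 (n = 3). In the series text the early time is the end of the colitis model and the late one follows 89 days of rest. On GRCm38 (GENCODE M21), Star lies at chr8:25806555-25815982, Cyp11a1 at chr9:58006411-58027023, Cyp17a1 at chr19:46667165-46673172 and Cyp19a1 at chr9:54165937-54268110.

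Steroid hormones are made from cholesterol. STAR brings it to the inner mitochondrial membrane, where CYP11A1 cuts off its side chain to give pregnenolone, with electrons passed on by FDXR and FDX1. HSD3B1 then makes progesterone, a main product of the corpus luteum. Theca cells use CYP17A1 to make androgens, which granulosa cells turn into estrogens with CYP19A1 (aromatase) and HSD17B1. AKR1C18 inactivates progesterone as the corpus luteum regresses, and SRD5A1 makes 5-alpha-reduced steroids.

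Sequences of the start regions are shown for the 3 genes whose windows held a GATA letter match, since 1 of them (Fdxr) separated DSS from control ovaries at day 7 and the others did not. The reference is RefSeq on GRCm38.p6, which had 10 windows for 7 of the 10 genes and none for Star, Cyp17a1 and Hsd17b1. Each run gives the 250 bases before the transcription start on the gene's own strand, the minus strand for all 3. Capitals mark AGATAA or TGATAA, read on either strand. The Hsd3b1 run lies at chr3:98859795-98860044, the Fdx1 run at chr9:51963603-51963852 and the Fdxr run at chr11:115276970-115277219.
Hsd3b1: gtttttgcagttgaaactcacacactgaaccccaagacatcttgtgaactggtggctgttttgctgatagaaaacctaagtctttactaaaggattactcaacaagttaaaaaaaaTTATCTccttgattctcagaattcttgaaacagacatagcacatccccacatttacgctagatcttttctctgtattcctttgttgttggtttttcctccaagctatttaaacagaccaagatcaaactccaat
Fdx1: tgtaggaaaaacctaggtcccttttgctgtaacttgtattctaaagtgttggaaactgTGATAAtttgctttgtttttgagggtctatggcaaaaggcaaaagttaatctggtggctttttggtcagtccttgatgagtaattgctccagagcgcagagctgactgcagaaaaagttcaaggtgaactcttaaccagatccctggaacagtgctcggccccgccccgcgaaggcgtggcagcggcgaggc
Fdxr: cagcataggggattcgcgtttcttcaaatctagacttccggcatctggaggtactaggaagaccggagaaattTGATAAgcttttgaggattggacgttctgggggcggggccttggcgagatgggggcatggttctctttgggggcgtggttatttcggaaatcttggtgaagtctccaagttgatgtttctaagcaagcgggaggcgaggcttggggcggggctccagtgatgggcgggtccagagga
A GATA match stood in 18.6% of all 32851 promoter windows of the reference (250 bases before to 50 after the start). The letters AAGGTCA, bound by NR5A receptors, were in none of the 10 windows and in 4.72% of all windows. The letters TGACG, from the cAMP response element, were in 1 window of Cyp11a1 (chr9:57997774-57998073) and in 20.8% of all windows. The other Cyp11a1 window was chr9:58014702-58015001. Neither holds the Cyp11a1 start given above, chr9:58006411, so the region before that start was not searched for any of these letters. The motifs do not overlap each other in these windows.

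Values were deposited as FPKM, fragments per kilobase of gene scaled to depth, so levels of different genes can be compared. Reads recovered from FPKM and gene length ran from 15256018 to 18505144 per library. Whether each library stands for its own animal is not said in the labels, so the p-values cover library-to-library spread, part of which can be technical. Mitochondrially encoded transcripts took 9.96% to 14.2% of reads in DSS day 7 replicate 75 and control day 7 replicates 10 and 53, and 0.479% to 4.04% in the other 11. These 3 are called mitochondria-rich in what follows. The tissue is labelled ovary, but retinas are mentioned in the extract protocol. Of 12 retina markers the highest value in any library was 7.22 FPKM, and granulosa markers summed to 1085 FPKM or more in each library. In whole ovaries, fewer cells of a type and less RNA per cell cannot be told apart.

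Together the 10 genes took 1.49% ± 0.284 of reads in DSS and 1.45% ± 0.138 in control ovaries at day 89 (SD, n = 4 and 3). At day 7 they took 0.70% ± 0.12 in DSS and 0.987% ± 0.189 in control ovaries (n = 4 and 3). Hsd3b1 was the most abundant in each group and Cyp11a1 the second. Hsd3b1 averaged 3194 FPKM in DSS day 89, 2737 in control day 89, 1859 in DSS day 7 and 1841 in control day 7. Below these 2 enzymes came Star, Fdx1, Fdxr, Hsd17b1 and Akr1c18 in each group, in varying order. Neighbours among them overlapped in their libraries in every group, except that Hsd17b1 lay above Akr1c18 without overlap in control day 7. In DSS day 7, Star was the last of these 5, next to Akr1c18, with which it overlapped. Srd5a1, Cyp17a1 and Cyp19a1 were the 3 lowest in each group.

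The genes differed widely in how much they varied. Between the lowest and highest of 14 libraries, Hsd3b1 spanned 2.72-fold and Srd5a1 2.70-fold, and Fdxr 3.99-fold. Cyp19a1 spanned 106-fold, Akr1c18 133-fold and Cyp17a1 156-fold. Within single groups Akr1c18 spanned the same 133-fold in DSS day 89, Cyp17a1 up to 74.4-fold and Cyp19a1 up to 42.2-fold, both in control day 7. The lowest Cyp17a1 value, in control day 7 replicate 10, rested on 28 reads, and the lowest Cyp19a1 value, in DSS day 7 replicate 75, on 43.

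**Figure D1:**
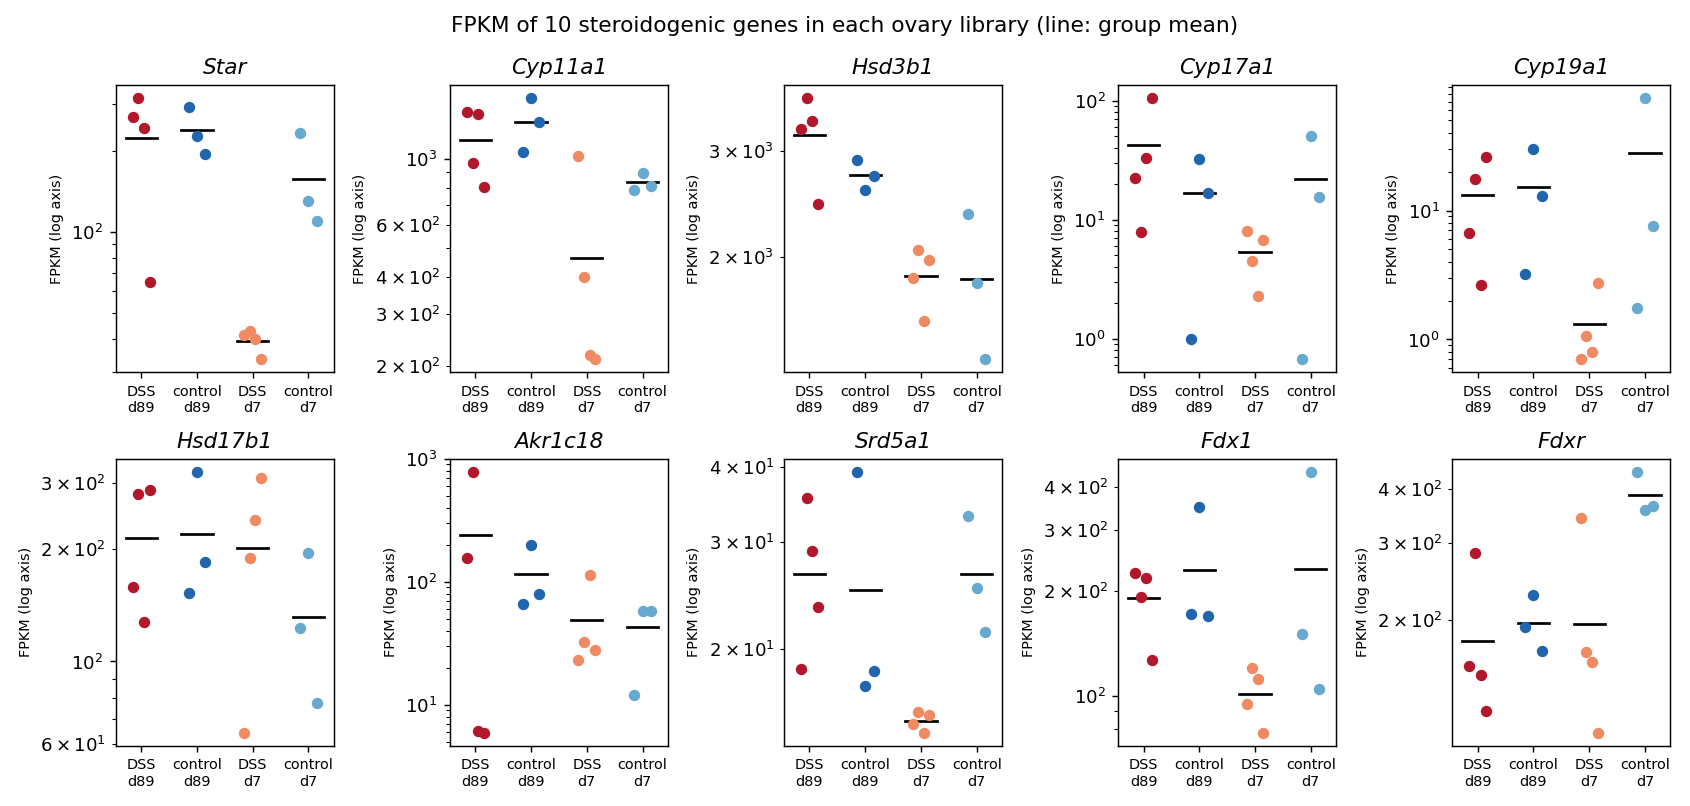
FPKM of each gene (log axis) in every library, by group, with the group mean as a line. Star lay between 33.5 and 42.5 FPKM in the 4 DSS day 7 libraries, below the other 10 libraries, while Hsd3b1 overlapped between DSS and control at both days.

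At day 7 the gene of the route with the smallest p between DSS and control ovaries was Star, at the entry of cholesterol. Star stood at 41.2, 42.5, 39.7 and 33.5 FPKM in DSS ovaries, against 234, 131 and 109.6 FPKM in control ovaries. The 4 DSS libraries lay close together and all below the lowest control. In the fit this was a log2 fold change of −1.91 (SE 0.43), whose adjusted p of 0.0885 by limma over 18006 genes missed the threshold of 0.05. Among the mitochondria-rich libraries (1 DSS, 2 controls) the difference was −1.93, and among the rest (3 DSS, 1 control) −1.74. Star passed at −1.94 without DSS replicate 75 (limma adjusted p = 0.0335), and also without R89 of DSS day 89, which enters only through the shared estimate of spread. All fold changes given are on the scale of log2(FPKM + 1), which understates changes of low genes.

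None of the 3 genes of side-chain cleavage passed at day 7. Cyp11a1 stood at 1019, 399, 218 and 211 FPKM in DSS ovaries, against 786, 899 and 812 FPKM in control ovaries. Replicate 75 alone exceeded the controls and the other 3 DSS libraries lay below them. Its log2 fold change was −1.16 (SE 0.44, adjusted p = 0.235 by limma). Among mitochondria-rich libraries it was 0.35, and among the rest −1.76. Without replicate 75 it was −1.65 and passed (limma adjusted p = 0.0112).

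Fdxr, the reductase that feeds electrons into the chain, stood at 342, 168, 159.9 and 109.9 FPKM in DSS ovaries, against 438, 357 and 366 FPKM in control ovaries. No libraries overlapped, although replicate 75 came close to the controls. Their log2 fold change was −1.11 (SE 0.34, limma adjusted p = 0.153), and −1.42 without replicate 75 (adjusted p = 0.0139). Among mitochondria-rich libraries it was −0.23, and among the rest −1.31. Fdx1, the ferredoxin that takes those electrons to CYP11A1, stood at 94.6, 120.4, 112 and 78.2 FPKM in DSS ovaries, against 150.2, 441 and 105 FPKM in control ovaries. DSS replicates 80 and 81 exceeded control replicate 53, so the groups overlapped (log2 fold change −0.93, SE 0.41, limma adjusted p = 0.29). Without control replicate 51 it was −0.32. Among mitochondria-rich libraries it was −0.40, and among the rest −2.11.

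Hsd3b1, which makes progesterone from pregnenolone, was nearly level at day 7. It stood at 1844, 2052, 1564 and 1974 FPKM in DSS ovaries, against 2359.9, 1810.2 and 1352 FPKM in control ovaries at day 7. The controls spanned the whole DSS range. The log2 fold change was 0.04 with a 95% interval of −0.52 to 0.60. Reads of near-identical Hsd3b family copies may be split differently by the counting, which makes this gene less certain.

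Among the enzymes of androgen and estrogen synthesis, the control ovaries at day 7 were themselves far apart. Cyp19a1, aromatase, stood at 0.706, 1.06, 0.795 and 2.72 FPKM in DSS ovaries, against 1.77, 74.6 and 7.55 FPKM in control ovaries. DSS replicate 82 exceeded control replicate 10, so the groups overlapped, and control replicate 51 was the highest of all 14 libraries. In the fit aromatase was at −2.46 (SE 0.97, adjusted p = 0.248 by limma), and at −1.14 without control replicate 51. Among mitochondria-rich libraries it was −1.51, and among the rest −4.98. Cyp17a1 stood at 7.96, 4.46, 2.27 and 6.71 FPKM in DSS ovaries, against 0.673, 50.1 and 15.4 FPKM in control ovaries. Its DSS libraries lay inside the control range (log2 fold change −0.92, SE 1.12, limma adjusted p = 0.727), and the sign differed between the mitochondria-rich libraries (0.77) and the rest (−3.31).

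Hsd17b1, which turns estrone into estradiol in granulosa cells, stood at 64.5, 189, 239.5 and 310.2 FPKM in DSS ovaries, against 122.8, 195 and 77.4 FPKM in control ovaries. The groups overlapped (log2 fold change 0.50, SE 0.49, limma adjusted p = 0.659). Among mitochondria-rich libraries it was −0.59, and among the rest 0.30.

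Neither of the 2 enzymes that act on progesterone outside the route to estradiol passed at day 7. Srd5a1 stood at 15.03, 15.7, 14.5 and 15.5 FPKM in DSS ovaries, against 33.2, 25.2 and 21.3 FPKM in control ovaries. All DSS libraries lay below all controls, and their coefficient of variation of 3.49% was the smallest of the 10 genes in any group. Its log2 fold change was −0.74 (SE 0.26, adjusted p = 0.204 by limma). Among mitochondria-rich libraries it was −0.78, and among the rest −0.69. Srd5a1 overlaps Gm17108 on its own strand and Nsun2 on the opposite one, and Cyp11a1 overlaps Gm17322 on its own strand, so reads there may be shared. Akr1c18 stood at 23.2, 32.3, 113 and 27.7 FPKM in DSS ovaries, against 12.0, 58.2 and 57.4 FPKM in control ovaries. DSS replicate 81 was the highest and the groups overlapped (log2 fold change 0.18, SE 1.34).

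None of the 10 genes passed at day 7 by limma, where 0.0333% of all 18006 genes did (0.0278% lower). At an unadjusted p under 0.05, 6 of the 10 were lower and none higher, beside 7.58% of all genes lower and 8.46% higher (16% in all). limma's voom on the recovered reads also called 0, with 5 at an unadjusted p under 0.05. By limma that count was 3 without control replicate 51, and 4 without DSS replicate 81 or 82 or with only the day 7 samples. The libraries of 3 genes (Star, Srd5a1 and Fdxr) did not overlap, all lower in DSS, beside 5.87% of all genes lower and 6.24% higher. The median log2 fold change of the 10 was −0.92, beside 0 to 2 decimals (0.0041) for all genes tested. With the 3 mitochondria-rich libraries left out, day 7 has a single control, replicate 51, so effect sizes alone are given. The log2 fold changes were then −1.76 for Cyp11a1, −4.98 for Cyp19a1, −2.11 for Fdx1 and −1.74 for Star. Replicate 51 held the highest Cyp19a1 and Fdx1 values of all 14 libraries.

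**Figure D2:**
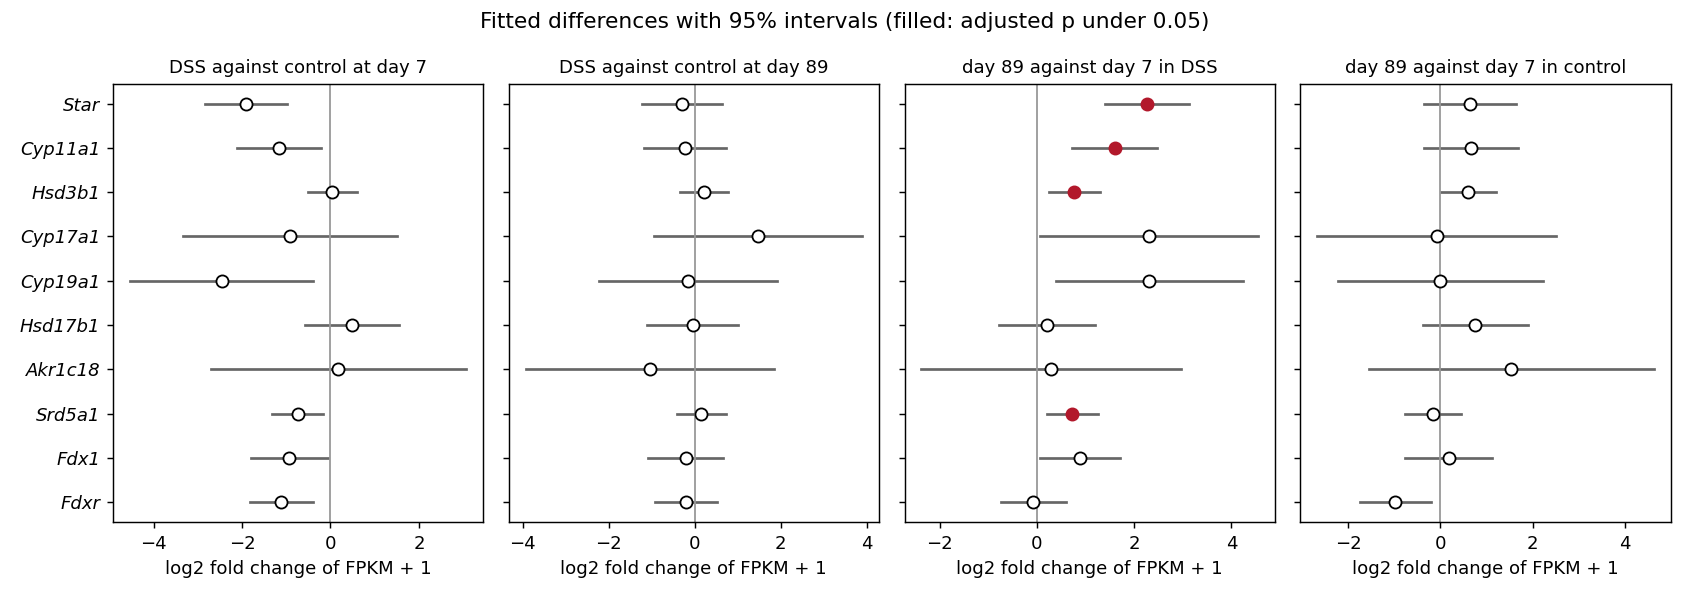
Fitted log2 fold changes with 95% intervals for the 10 genes in 4 comparisons, where filled points passed an adjusted p of 0.05. The 4 filled points, Star, Cyp11a1, Hsd3b1 and Srd5a1, all belong to day 89 against day 7 in DSS.

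At day 89 no gene of the route separated DSS from control ovaries. Star stood at 269, 316, 244 and 64.8 FPKM in DSS ovaries, against 294, 229 and 195 FPKM in control ovaries. Replicate R89 alone lay far below, and the other 3 DSS libraries lay within or above the control range. In the fit this gave −0.30 (SE 0.43, 95% interval −1.23 to 0.63), and 0.22 without R89.

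Cyp11a1 stood at 1436, 968, 1421 and 805 FPKM in DSS ovaries, against 1057, 1604 and 1334 FPKM in control ovaries at day 89. Its log2 fold change was −0.23 (95% interval −1.18 to 0.73), and the groups overlapped. Hsd3b1 stood at 3271, 3681, 3373 and 2449 FPKM in DSS ovaries, against 2898, 2588 and 2724 FPKM in control ovaries. Of the DSS libraries 3 lay above all controls and R89 below them (log2 fold change 0.21, 95% interval −0.35 to 0.77). Fdx1 and Fdxr had log2 fold changes of −0.22 and −0.21, with overlapping libraries.

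The sex steroid enzymes overlapped widely between the groups at day 89. Cyp17a1 stood at 22.5, 7.80, 32.6 and 105 FPKM in DSS ovaries, against 0.987, 32.4 and 16.8 FPKM in control ovaries. R89 held the highest Cyp17a1 value of all 14 libraries and R123 the second lowest. The log2 fold change was 1.47 with a 95% interval of −0.95 to 3.89. It was 0.26 without R123 of control, 0.85 without R89 and 2.30 without R124. Cyp19a1 stood at 6.68, 17.5, 2.67 and 26.2 FPKM in DSS ovaries, against 3.19, 29.8 and 12.9 FPKM in control ovaries, nearly the same range (log2 fold change −0.16, 95% interval −2.23 to 1.92). Hsd17b1 averaged 214 ± 82.7 FPKM in DSS and 219 ± 90.0 FPKM in control ovaries (SD, n = 4 and 3), a log2 fold change of −0.05.

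Akr1c18 had the largest coefficient of variation of the 10 genes in any group, 156% in DSS day 89. It stood at 156, 785, 6.09 and 5.91 FPKM in DSS ovaries, against 66.1, 201 and 79.0 FPKM in control ovaries. The DSS libraries lay on both sides of the controls, with R38 above them all and R78 and R89 below them all. The log2 fold change of −1.05 carried an SE of 1.34. It was −2.38 without R38, −0.11 without R78, −0.10 without R89 and −0.56 without R124 of control. The Akr1c genes form a family of like sequences, so its reads are less certain too. Srd5a1 averaged 26.6 ± 7.32 FPKM in DSS and 25.0 ± 12.4 FPKM in control ovaries (SD, n = 4 and 3), a log2 fold change of 0.15.

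By limma 0 of the 10 genes passed at day 89, where 0.00555% of all genes did. At an unadjusted p under 0.05 there were also 0, by limma and by voom, beside 4.58% of all genes by limma (2.37% higher, 2.21% lower). None of the 10 had libraries that did not overlap, beside 4.04% of all genes higher and 4.25% lower. The adjusted p of the 10 ran from 0.924 to 0.999 by limma, and their median log2 fold change was −0.18.

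In DSS ovaries 4 genes of the route passed as higher at day 89 than at day 7, and none as lower. Words such as rose and fell stand for such differences between separate libraries. Time, age of the animals and any batch cannot be told apart between the days, in DSS or in control ovaries. Star rose to 223 ± 110.0 FPKM at day 89, against 39.2 ± 3.96 FPKM at day 7 (SD, n = 4 each), by 2.27 in log2 (SE 0.40, adjusted p = 0.00319 by limma). Every day 89 library exceeded every day 7 library, R89 by the least. Cyp11a1 rose to 1157 ± 319.9 FPKM, against 462 ± 381 FPKM at day 7 (1.60, SE 0.41, adjusted p = 0.0164 by limma), with overlap through replicate 75. Hsd3b1 rose to 3194 ± 526 FPKM, against 1859 ± 214 FPKM (0.77, SE 0.24, limma adjusted p = 0.0366), with no overlap. Srd5a1 rose to 26.6 ± 7.32 FPKM, against 15.2 ± 0.53 FPKM (0.73, SE 0.24, limma adjusted p = 0.0472), with no overlap.

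The other enzymes did not pass in DSS ovaries over time. Fdx1 averaged 191 ± 44.9 FPKM at day 89 and 101 ± 18.8 FPKM at day 7 without overlap (log2 fold change 0.89, limma adjusted p = 0.106). Cyp17a1 and Cyp19a1 had larger log2 fold changes of 2.31 each, with SEs of 1.04 and 0.89 and limma adjusted p of 0.126 and 0.0793. Akr1c18, Hsd17b1 and Fdxr overlapped between the days.

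These 4 of 10 stood beside 10.7% of all genes higher, and 21.4% called in either direction. At an unadjusted p under 0.05 there were 7 of 10, all higher, beside 18.4% of all genes higher (36.6% in either direction). Libraries did not overlap for 4 of the 10 (Star, Hsd3b1, Srd5a1 and Fdx1), all higher, beside 12.2% of all genes. Star passed in all 21 alternative fits, with adjusted p from 0.000192 to 0.0139 by limma. Cyp11a1 passed in 18 of 21, Hsd3b1 in 12 and Srd5a1 in 8. The count of the 10 genes that rose was 1 without DSS replicate 81 of day 7 or R78 of day 89, and 2 without replicate 80, 82, R29 or R38 of DSS or R126 of control.

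In control ovaries no gene of the route passed between the days by limma, although 31.8% of all genes did (16.1% higher, 15.7% lower). Hsd3b1 averaged 2737 ± 156 FPKM at day 89 and 1841 ± 505 FPKM at day 7 (SD, n = 3 each), without overlap (log2 fold change 0.61, limma adjusted p = 0.11). Cyp11a1 averaged 1332 ± 273 FPKM at day 89 and 832 ± 59.0 FPKM at day 7, also without overlap (0.66, limma adjusted p = 0.303). Fdxr had the opposite sign, at 197 ± 29.5 FPKM at day 89 and 387 ± 44.5 FPKM at day 7, without overlap (−0.98, SE 0.36, limma adjusted p = 0.0514), and it passed in 5 of 21 alternative fits, among them those without R38, 75 or 82 of DSS. Akr1c18 averaged 115 ± 74.3 FPKM at day 89 and 42.5 ± 26.4 FPKM at day 7 without overlap (1.53, SE 1.44). At an unadjusted p under 0.05 there were 2 of the 10, Hsd3b1 and Fdxr, beside 43.3% of all genes, and these 2 passed with voom. Libraries did not overlap for 3 higher and 1 lower gene, beside 22.8% and 22.2% of all genes.

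The change of the DSS effect between the days was tested as such, and none of the 10 genes passed by limma or voom, nor did any of all genes by limma (0%). Differences with an unadjusted p under 0.05 were 1.61 for Star (SE 0.61, 95% interval 0.30 to 2.93, limma adjusted p = 0.553) and 0.89 for Srd5a1 (SE 0.37, 95% interval 0.09 to 1.70, limma adjusted p = 0.574). They were the only 2 of the 10 below 0.05 unadjusted by limma, beside 8.45% of all genes (4.37% higher, 4.08% lower). These differences share their DSS and control libraries with the comparisons above.

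**Figure D3:**
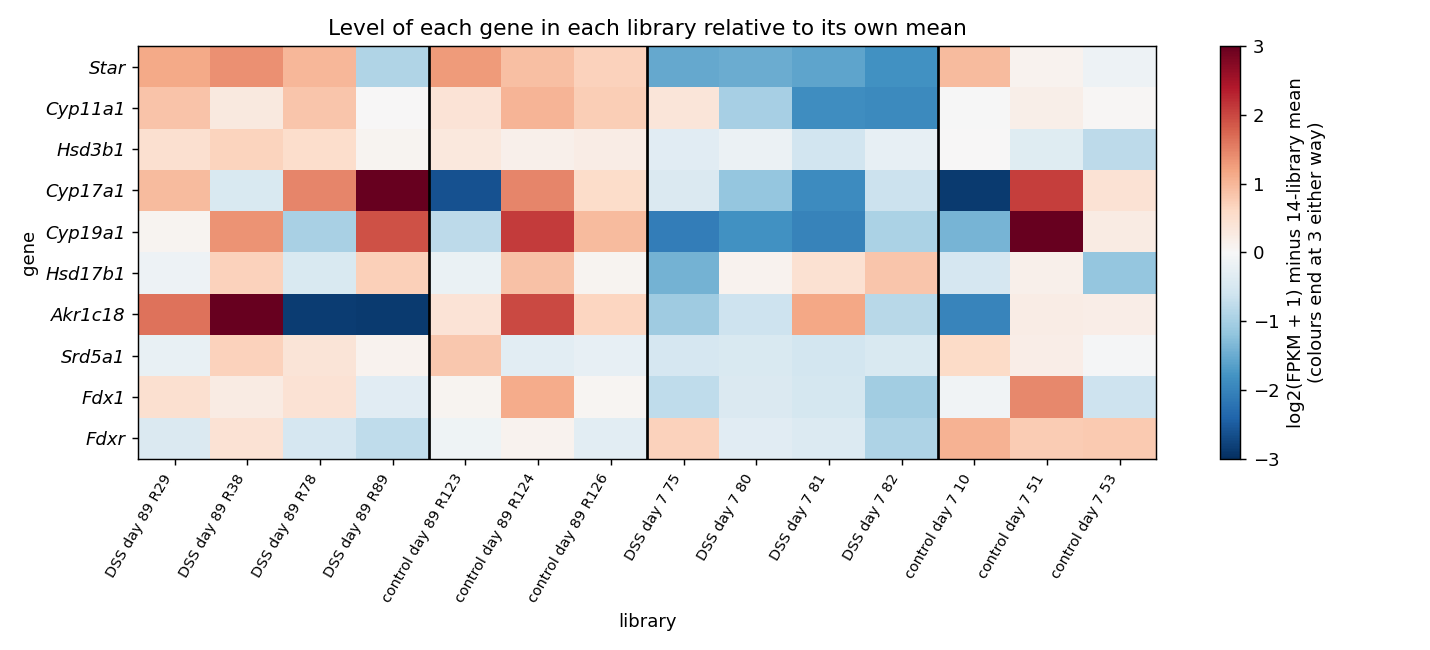
Level of each gene in each library as log2(FPKM + 1) minus its mean over 14 libraries, with colours ending at 3 in either direction. The DSS day 7 columns are below the mean for Star in all 4 libraries. The same holds for Hsd3b1, Cyp17a1, Cyp19a1, Srd5a1 and Fdx1, of which Hsd3b1 was nearly level between DSS and control at day 7. Akr1c18 lies on both sides of its mean in DSS day 89, DSS day 7 and control day 7.

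Ratios of genes within a library do not depend on its depth. The log2 ratio of Cyp19a1 over Cyp17a1, aromatase over the androgen enzyme, was −3.50, −2.07, −1.52 and −1.31 in DSS ovaries at day 7, against 1.39, 0.57 and −1.03 in control ovaries. All DSS libraries lay below all controls, but the nearest values were −1.31 and −1.03. Some of these ratios rest on few reads. Control replicate 10, at 1.39, had 28 reads of Cyp17a1 and 120 of Cyp19a1. DSS replicate 75, at −3.50, had 43 reads of Cyp19a1. At day 89 it was −1.75, 1.16, −3.61 and −2.01 in DSS ovaries, against 1.69, −0.12 and −0.38 in control ovaries, and R38 lay within the control range. The log2 ratio of Akr1c18 over Hsd3b1, breakdown over synthesis of progesterone, averaged −5.56 ± 1.19 in DSS and −5.71 ± 1.67 in control ovaries at day 7. At day 89 it averaged −6.11 ± 3.35 in DSS and −4.75 ± 0.94 in control ovaries (SD, n = 4 and 3 at each day). Its widest gap within a group was between R38 at −2.23 and R78 at −9.12. These ratios are descriptions without a test.

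**Figure D4:**
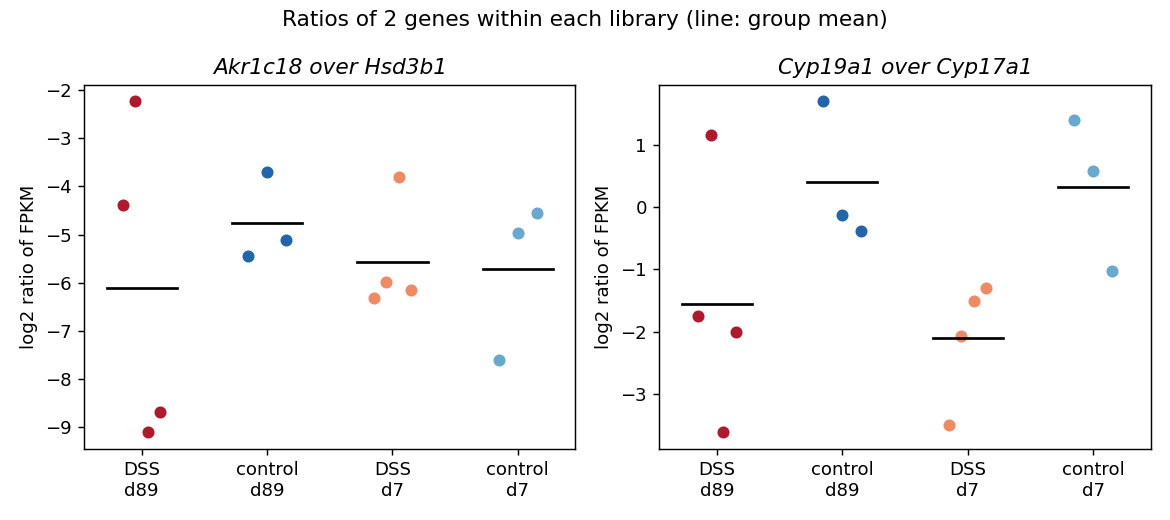
Log2 ratio of FPKM of 2 genes within each library, by group, with the group mean as a line. Aromatase over Cyp17a1 was lower in all 4 DSS than in all 3 control libraries at day 7, where the nearest values were −1.31 and −1.03. Akr1c18 over Hsd3b1 spread most in DSS day 89.

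Genes around the route were counted from lists that leave the 10 genes out. Of 29 other steroid enzymes and redox partners 22 were tested, and none passed by limma in either DSS comparison. The smallest p at day 7 belonged to Cyb5b, a mitochondrial cytochrome b5 (45.5 ± 8.55 FPKM in DSS and 72.2 ± 6.44 FPKM in control ovaries, log2 fold change −0.67), Cyp1b1 (66.9 ± 10.6 and 42.5 ± 3.42 FPKM, 0.63) and Srd5a2 (1.83 ± 0.407 and 3.67 ± 0.283 FPKM, −0.73). For each of these 3 the libraries did not overlap (limma adjusted p = 0.126, 0.146 and 0.186). Of the 22 tested, 1 was higher and 2 lower without overlap at day 7, beside 6.24% of all genes higher and 5.87% lower. At day 89 Cyb5a, a cytochrome b5 that aids CYP17A1, stood at 77.9 ± 4.81 FPKM in DSS and 52.5 ± 13.7 FPKM in control ovaries (0.59, limma adjusted p = 0.924). Hsd3b6 (0.42) and Hsd17b4 (−0.32) came next, with the same adjusted p. Between the days in DSS ovaries, Por, the electron donor of microsomal P450 enzymes, rose by 1.00 and Hsd3b6 by 0.78, while Hsd17b3 fell by 0.68 (limma adjusted p = 0.0107, 0.0137 and 0.0293), beside 10.7% of all genes in each direction. In control ovaries Por rose over the same days too, by 1.27 (limma adjusted p = 0.00362), as did Cyp1b1 (1.06) and Hsd17b4 (0.85). Srd5a2 (−0.95), Akr1cl (−0.60) and Cyp7b1 (−0.45) fell. These 3 higher and 3 lower of the 22 tested stood beside 16.1% of all genes higher and 15.7% lower.

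All 14 genes of cholesterol delivery were tested and none passed by limma in either DSS comparison. At day 7, 5 were lower and 1 higher at an unadjusted p under 0.05, beside 7.58% of all genes lower and 8.46% higher. Libraries did not overlap for 3 lower and 1 higher gene, beside 5.87% and 6.24% of all genes. Npc1, which exports cholesterol from lysosomes, was higher, at 3.70 ± 0.881 FPKM in DSS and 2.03 ± 0.396 FPKM in control ovaries (0.62, limma adjusted p = 0.123), without overlap, and Npc2, its lysosomal partner, had −0.76 (0.235). At day 89 Scp2 (−0.38) and Acbd3 (−0.35) had the smallest p, with a limma adjusted p of 0.924. Between the days in DSS ovaries 4 rose and none fell, beside 10.7% of all genes in each direction. Scarb1, the HDL receptor, rose to 140.7 ± 66.6 FPKM at day 89, against 30.8 ± 10.7 FPKM at day 7 (2.08, limma adjusted p = 0.00237). Lipa, the lysosomal acid lipase, rose by 1.09 and Npc1 by 0.64 (limma adjusted p = 0.00544 and 0.0118). In control ovaries Lipa rose by 1.28, Npc1 by 1.31 and Acbd3 by 0.97 (limma adjusted p = 0.00246, 0.000402 and 0.0106), beside 16.1% of all genes higher. Scarb1 did not pass there, at 118.5 ± 43.2 FPKM at day 89 and 54.8 ± 7.92 FPKM at day 7. Its difference of the DSS effects was 1.05 (limma adjusted p = 0.613).

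Of 27 receptors and regulators 26 were tested, and none passed by limma in either DSS comparison. Nr0b1, a repressor of steroidogenic genes, averaged 9.69 ± 5.61 FPKM in DSS and 2.48 ± 0.839 FPKM in control ovaries at day 7 (1.42, limma adjusted p = 0.22), with overlap. Gata6, a GATA factor, had 0.48 (0.223, no overlap) and Prlr, the prolactin receptor, −1.18 (0.239). Of the 26 tested, 1 was higher and 2 lower without overlap at day 7, beside 6.24% of all genes higher and 5.87% lower. Fshr, the follicle stimulating hormone receptor, averaged 13.3 ± 5.62 FPKM in DSS and 6.19 ± 3.38 FPKM in control ovaries at day 89 (1.01, limma adjusted p = 0.924), ahead of Foxl2 (0.23) and Crtc2 (0.42) with the same adjusted p. Over time in DSS ovaries Lhcgr, the luteinizing hormone receptor, rose by 2.50, Prlr by 1.58, Stat5a by 1.03 and Stat5b by 0.70 (limma adjusted p = 0.0117, 0.0202, 0.0306 and 0.026), beside 10.7% of all genes higher. In control ovaries Igf1r (0.65), Gata6 (0.64) and Insr (0.43) rose and Foxl2 (−0.47) fell, beside 16.1% of all genes higher and 15.7% lower. Lhcgr averaged 74.4 FPKM in control ovaries at day 89 and 35.3 FPKM at day 7, and Prlr 39.1 and 21.6 FPKM. Stat5a averaged 11.7 and 8.50 FPKM there, and Stat5b 36.9 and 27.6 FPKM. Lhcgr, Prlr, Stat5a and Stat5b did not pass in control ovaries.

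Summed markers of the cell types of the ovary were set beside the route. The 14 luteal markers, Star and Cyp11a1 left out, summed to 283 to 951 FPKM in DSS and 768 to 1532 FPKM in control ovaries at day 7, and 13 of 14 had a negative log2 fold change (median −0.82). None passed and none was at 0. Their sum was 630.3 to 1555 FPKM in DSS and 869.7 to 2093 FPKM in control ovaries at day 89. From day 7 to day 89 in DSS ovaries 7 of the 14 rose, with a median of 1.26, beside 10.7% of all genes higher. In control ovaries 2 of the 14 rose, Abhd2 (1.84) and Ptgfrn (0.83), with a median of 0.81 over the 14, beside 16.1% of all genes higher. None of the 14 had a negative log2 fold change between the days, in DSS or in control ovaries. Libraries did not overlap for 6 of them in DSS and 5 in control ovaries, all higher, beside 12.2% and 22.8% of all genes. The change of the DSS effect between the days passed for none of the 14. The 15 granulosa markers had a median of 0.04 at day 7 and the 13 theca and interstitial markers 0.12, and both sums overlapped between DSS and control. Oocyte markers (10 genes) summed to 316.4 to 512 FPKM in DSS and 169.7 to 305.3 FPKM in control ovaries at day 7. Erythrocyte markers (6 of 7 in the table) summed to 409.8 to 725.6 FPKM in DSS and 49.9 to 309.5 FPKM in control ovaries at day 7. Neither sum overlapped between DSS and control ovaries, and no gene of either list passed in that comparison by limma. At day 89 the erythrocyte sum was 44.4 to 655.7 FPKM in DSS, highest in R89, and 42.8 to 45.6 FPKM in control ovaries. The oocyte sum was then 61.9 to 177.6 FPKM in DSS and 34.7 to 146.8 FPKM in control ovaries. From day 7 to day 89 all 10 oocyte markers fell in DSS ovaries (median −1.59), beside 10.7% of all genes lower. In control ovaries 5 of the 10 fell (median −0.94), beside 15.7% of all genes lower. The part of these cells in the values of the 10 genes was not tested.

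**Figure D5:**
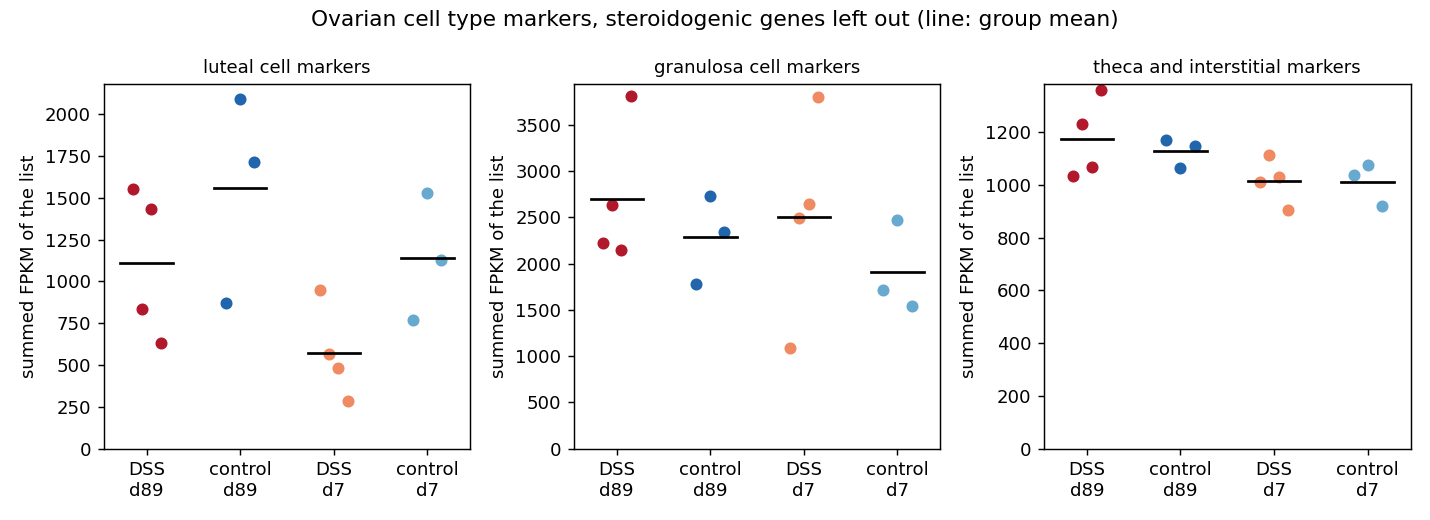
Summed FPKM of luteal, granulosa and theca or interstitial markers in every library, without the 10 steroidogenic genes, with the group mean as a line. The luteal sum reached 951 FPKM at most in DSS day 7 and overlapped with control day 7, while theca and interstitial sums lay between 904 and 1361 FPKM in all groups.

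The genes of most similar profile were found by the mean absolute difference over 14 libraries between log2(FPKM + 1) values, each centred on the gene's own mean, among 12530 genes. For Star they were Apln (0.33), Abcb1b (0.43) and Cpxm2 (0.45), where the median gene lay at 1.08. For Cyp11a1 they were Prlr (0.23), Abca7 (0.30) and Stat5a (0.32), with the median gene at 0.76. For Cyp19a1 they were Inhba (0.54), Grem1 (0.74) and Trib2 (0.86), and for Cyp17a1 Phyhip (0.64), Grem1 (0.83) and Mro (0.87). For Akr1c18 the nearest, Cdkn2b, lay at 0.99, against a median of 1.47. Apln, which encodes the peptide apelin, averaged 1.70 ± 0.502 FPKM in DSS and 9.34 ± 7.05 FPKM in control ovaries at day 7, and 12.3 ± 9.44 FPKM in DSS and 13.4 ± 3.44 FPKM in control ovaries at day 89. Inhba, a subunit of activin and inhibin A, averaged 27.1 ± 21.2 FPKM in DSS and 111 ± 127 FPKM in control ovaries at day 7. Among the 10 genes themselves the smallest distance was between Hsd3b1 and Srd5a1 (0.35). Hsd3b1 and Fdx1 (0.42) and Star and Cyp11a1 (0.53) followed. Genes that vary little lie close by this measure whatever their pattern. Hsd3b1 and Srd5a1 spanned the least over the 14 libraries (2.72-fold and 2.70-fold). Their log2 fold changes at day 7 were 0.04 and −0.74, so a shared pattern is not shown.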

How the data were processed

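Total RNA of ovaries went into Illumina TruSeq libraries, per the labels' protocols. The authors deposited FPKM values, 1 column per library, with a gene length; HISAT2 2.0.5 and GRCm38 are named in the submitters' processing notes. For the counter, annotation release and strand handling, nothing is given in the sources used here. The deposited gene positions differ from GENCODE M21 on GRCm38 (1435 of 52073 matched gene IDs have the same position) and are not printed. Multiplied by gene length, FPKM came out as whole reads (tolerance 0.01, 100% of values up to 300 reads); the authors' scaling implies 0.852 to 1.07 times these totals.

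Genes with at least 0.5 FPKM in 3 or more libraries (18006) were tested as log2(FPKM + 1), 1 mean per group over 14 libraries, with limma 3.58.1 (trend, R 4.3.3) and Benjamini-Hochberg adjustment over all of them at 0.05. All 10 genes of the route passed this filter. The fit was tested on simulated reads with the same spread setting for all genes, so that test does not cover genes as variable as Akr1c18. The 10 genes and the lists were chosen with earlier results of these data known; lists are described by counts and medians. Named beyond the 10 are, per pathway list and DSS against control comparison, the 3 smallest p-values (none was called), plus the 3 nearest profiles of Star, Cyp11a1, Cyp17a1, Cyp19a1 and Akr1c18; genes of these lists called between days, and luteal markers called between days in control ovaries, were added after their values were seen. A gene of the cholesterol delivery list that this rule names is not reported here; the list's counts include it. The design also foresaw counts; the table holds FPKM, so limma was used. Alternatives were another pseudocount (0.1), no filter, only the compared samples, read-total scaling, voom, leaving out or modelling the 3 libraries above 8% mitochondrial reads, and leaving out each library. No batch is given in the labels.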

Additional observations from a re-analysis of the deposited data

Results flagged for a closer look

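In groups of 4 libraries the gap of an extreme value to its neighbour was set against the group's range, in 24 sets of values for the 10 genes and the 2 ratios. Chance marks about 1 in 20 such groups, and 2 of them exceeded Dixon's 95% critical value. Akr1c18 stood at 113 FPKM (112.7) in DSS day 7 replicate 81, apart from 23.2 to 32.3 FPKM in the other 3. The log2 ratio of Akr1c18 over Hsd3b1 in the same library, −3.79, stood apart from −6.31 to −5.99. Both rest on the same Akr1c18 value. No cause was tested.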

How the results depend on the processing

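No paired analysis was possible because no library number recurs between groups. Of 691 alternative values of 33 fold changes, 629 kept direction and side of the threshold, 25 lost it, 19 gained it and 18 changed sign. Without the mitochondria-rich libraries, which leaves 1 control at day 7, the median of the 10 genes at day 7 was −1.52. That of the difference of the DSS effects was 1.27. Over time in control ovaries the median was −0.0075 without these libraries and −0.18 with a term for them. At day 7 Akr1c18 was at −0.31 without them and −0.25 with the term, and Hsd17b1 at −0.12 with the term. Over time in DSS ovaries 2 of the 10 passed with no filter and 6 with only the compared samples; in control ovaries 1 passed with only the compared samples and 2 with voom.

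Leaving out 1 library at a time gave 0 to 3 of the 10 at day 7, 0 at day 89, 1 to 5 over time in DSS ovaries and 0 to 1 in control ovaries. The median ran from −1.06 to −0.55 at day 7 and from −0.24 to 0.037 at day 89. Signs changed in these ranges at day 7: Hsd3b1 −0.16 to 0.24, Cyp17a1 −2.29 to 0.18, Akr1c18 −0.55 to 0.55. At day 89 they did for Star (−0.54 to 0.22), Cyp19a1 (−0.93 to 0.51), Hsd17b1 (−0.27 to 0.26), Srd5a1 (−0.053 to 0.51) and Fdx1 (−0.39 to 0.13).

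Over all genes, 6 passed at day 7, against 2 with a pseudocount of 0.1, 4 with no filter, 0 with only the compared samples, 1 with read-total scaling, 0 with voom, 915 without the mitochondria-rich libraries and 20 with the term. Leaving out a library gave 0 (DSS replicate 80) to 1221 (DSS replicate 75). At day 89 the count was 1, and 5 with no filter, 0 with a pseudocount of 0.1, only the compared samples, voom or without the mitochondria-rich libraries, and 0 to 2 without a library. Over time it was 3860 in DSS ovaries (2034 to 4930 without a library) and 5732 in control ovaries (3695 to 6463, 3231 without the mitochondria-rich libraries and 3141 with the term). For the difference of the DSS effects it was 0, and 2 with no filter, 3 without the mitochondria-rich libraries and 0 to 41 without a library. That difference uses all groups, so it has no fit with only the compared samples. The cause of these changes was not tested.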
